A study of Homo sapiens with 16 samples.

Results

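The genotype by drug interaction asks whether abemaciclib changed a transcript to a different extent in FAH knockout cells than in control cells. RNA was sequenced from 16 libraries of T47D cells, a luminal breast cancer cell line that needs estrogen receptor signalling to grow. All 16 of the 16 libraries of the series were used, because the interaction needs all 4 groups. These were control cells under DMSO vehicle, control cells under 500 nM abemaciclib, FAH knockout cells under vehicle and FAH knockout cells under 500 nM abemaciclib, each collected on day 3 and each with 4 libraries. The labels do not say whether the knockout cells were 1 clone or a pool, which guide was used, or whether a group's 4 libraries are cultures of their own. The p-values therefore cover the spread between libraries only, which may be technical. A difference between the 2 cell populations that is not due to FAH cannot be told apart from the knockout.

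Abemaciclib inhibits CDK4 and CDK6, the kinases that, with cyclin D, phosphorylate the retinoblastoma protein. Unphosphorylated retinoblastoma protein holds E2F transcription factors, which drive genes of DNA replication, and the DREAM complex silences genes of mitosis through related promoter elements. FAH encodes fumarylacetoacetate hydrolase, which splits fumarylacetoacetate into fumarate and acetoacetate in the last step of tyrosine breakdown. ATF4 is a transcription factor that is translated when amino acids run short or when the endoplasmic reticulum or mitochondria are stressed, and it raises genes of amino acid synthesis, amino acid uptake and tRNA charging. Interferon-stimulated genes encode antiviral sensors and effectors and are switched on by STAT and IRF factors.

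The interaction is given on the log2(CPM + 1) scale, where CPM is counts per 1000000 assigned reads. It is the change with abemaciclib in knockout cells minus the change with abemaciclib in control cells. A value below 0 means that the drug lowered the transcript more, or raised it less, in knockout cells. A value of 0 means that the separate effects multiply. A gene counted as called when its limma p, adjusted by Benjamini-Hochberg over the 16218 tested genes, was under 0.05. A gene is said to have fractional counts where its values were whole reads in 8 or fewer of the 16 libraries, as happens when reads that match several genes are split. This held for 4957 tested genes, 631 of them called. An interaction given for a gene without a p was called.

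The libraries held 9915776 to 11963093 assigned reads, and libraries of 1 group correlated at 0.994 to 0.996 over the tested genes. The 10 defining T47D markers, among them ESR1, GATA3, KRT8 and CDH1, were all tested and summed to 9643 to 9806 CPM in control vehicle libraries, 11469 to 11912 under abemaciclib, 13325 to 13719 in knockout vehicle libraries and 15982 to 16263 in knockout cells under abemaciclib. Leukocyte markers summed to at most 7.78 CPM, and 7 of the 12 stayed under 1 CPM in all libraries. Mesenchymal markers summed to 80.2 to 107 CPM and basal epithelial markers to 116 to 145 CPM across the libraries. None of the tested leukocyte, mesenchymal and basal epithelial markers (4 of 12, 7 of 14 and 3 of 11) was called in the interaction by limma with all libraries. List counts of 0 to 2 calls in a direction, these included, moved by up to 2 when single libraries were left out. The share of reads in ribosomal protein mRNAs was 17.3% ± 0.218 (SD, n = 4) in control vehicle libraries, 15.5% ± 0.459 under abemaciclib, 14.8% ± 0.123 in knockout vehicle libraries and 14.9% ± 0.168 in knockout cells under abemaciclib. The share in all mitochondrially encoded genes, not the mRNAs alone, was 10.9% ± 0.330, 14.9% ± 0.304, 11.7% ± 0.196 and 13.4% ± 0.274 in the same order. The 13 mRNAs alone summed to 73922 to 79390 CPM in control vehicle libraries. Both shares thus moved with drug and genotype, and their part in the calls of other genes was not tested. The libraries also held 36 to 65 spike-in reads each, with group means of 58, 59.6, 59.5 and 46.8 in the same order. Rescaling by so few reads moved the median interaction of all tested genes from -0.03 to 0.25, and left 48 genes called higher and 10 lower. Of the called genes named below it left 26 called, 16 higher (ENSG00000248498, ASNS, ENSG00000284707, SLC7A11, GDF15, PSAT1, XAGE2, TP53I3, SLC7A5, PCK2, TRIB3, OLR1, CCN2, TMEM52B, MTHFD1L and GARS1) and 10 lower (RRM2, CAMK2B, MDGA1, MYBL2, CLSPN, EXO1, IFI27, PIP, CCNE2 and MCM10).

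FAH (chromosome 15, 80152490 to 80186946, GENCODE v29 on GRCh38) checked the knockout label. Its level was 25.1, 27.5, 25.2 and 28.2 CPM in the 4 control vehicle libraries and 23.4, 24.1, 25.8 and 22.6 CPM in control cells under abemaciclib. Knockout libraries had 6.77, 6.53, 6.27 and 7.02 CPM under vehicle and 5.03, 5.67, 6.79 and 5.54 CPM under abemaciclib. Every knockout library lay below every control library, with 25.1% of the control mean left under vehicle and 24.0% under abemaciclib. The two-sided exact permutation test gave p = 0.0286 under each treatment, the smallest p that its 70 assignments allow. A genotype difference in the drug effect on FAH was not detectable at this precision: the interaction was -0.05 (SE 0.112, limma adjusted p = 0.861), and 0.22 with no call under spike-in rescaling.

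Across all tested genes, 1758 of 16218 (10.8%) had a called interaction. It was higher than 0 for 759 genes (4.68%) and lower for 999 (6.16%), against 48 and 10 under the spike-in rescaling. Most were modest: the median absolute interaction of the called genes was 0.32, 225 reached 1.5-fold (41 higher, 184 lower) and 24 reached 2-fold (7 higher, 17 lower). The separate effects called many more genes, with 50.7% called for abemaciclib in control cells, 38.4% for abemaciclib in knockout cells, 37.7% for the knockout under vehicle and 29.9% for the knockout under abemaciclib. All of these comparisons share libraries with the interaction and with each other.

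A smaller response in knockout cells was the commonest pattern in both directions. Of the 999 genes called lower, 369 rose with abemaciclib in both genotypes and 362 rose in control cells with no call in knockout cells. A further 134 fell in both genotypes, and 98 fell in knockout cells with no call in control cells. Of the 759 genes called higher, 432 fell in both genotypes and 274 fell in control cells with no call in knockout cells. Opposite called directions were rare, with 28 genes that rose in control and fell in knockout cells and 19 that fell in control and rose in knockout cells. These patterns follow in part from the sign of the interaction and describe the called genes without a test of their own.

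**Figure D1:**
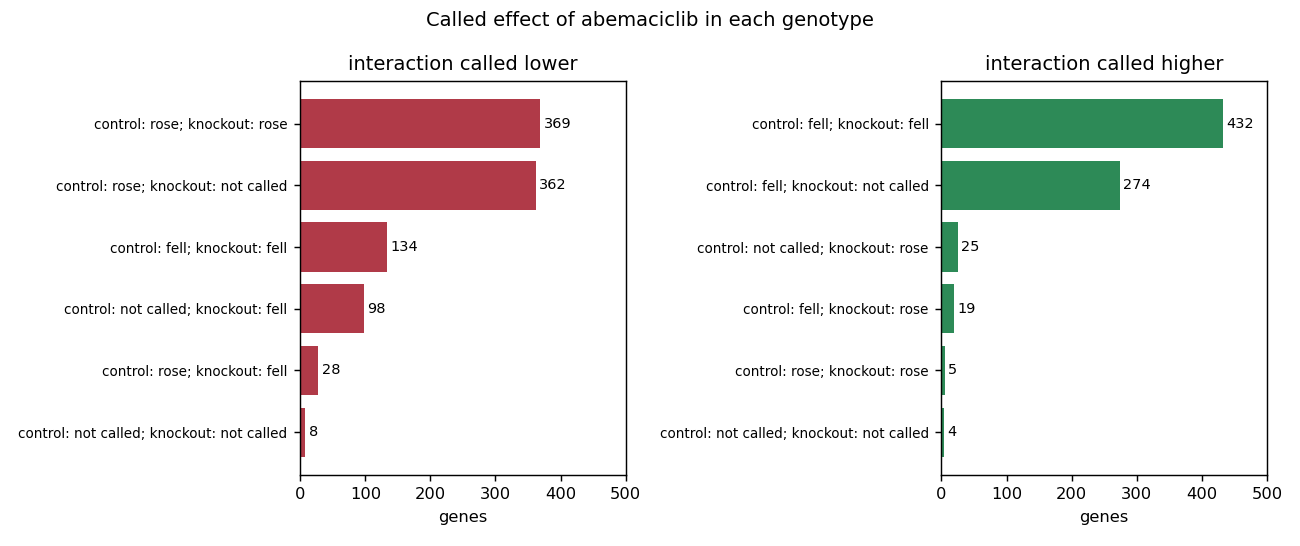
Number of genes (horizontal axis) with a called interaction, split by the called effect of abemaciclib in control and in knockout cells, for interactions below 0 (left) and above 0 (right). The longest bars are 369 and 362 genes that rose in control cells on the left and 432 and 274 genes that fell in control cells on the right.

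The same genes can be read by the knockout effect. Of the 999 genes called lower, 388 were higher in knockout cells under vehicle with no call under abemaciclib, and 195 were higher under both. Another 218 were lower in knockout cells under abemaciclib with no call under vehicle, 117 were lower under both, and 55 went from higher to lower. Among the 759 called higher, 344 were lower in knockout cells under vehicle with no call under abemaciclib, and 202 were higher under abemaciclib with no call under vehicle. A further 98 were lower under both and 68 went from lower to higher.

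Genes of DNA replication and mitosis fell with abemaciclib in both genotypes, and many fell further in knockout cells. All 57 tested genes of mitosis and cytokinesis fell in each genotype, where 31.1% of all tested genes fell in control and 27.4% in knockout cells. Of 41 genes of the replication fork and nucleotide supply 40 fell in control and 41 in knockout cells, and of 18 licensing genes 16 and 14 did. In the interaction, 8 licensing genes were called lower and none higher, with a median of -0.21. At the fork, 16 of 41 were called lower and 2 higher, with a median of -0.21. In mitosis, 25 of 57 were called lower and 1 higher, with a median of -0.32. Over all tested genes 6.16% were called lower and the median was -0.03. In bulk RNA, fewer cycling cells and less of these transcripts per cell cannot be told apart. Homologous recombination and Fanconi anemia genes, which repair broken and crosslinked DNA, had 8 of 40 called lower, none higher and a median of -0.17.

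RRM2, the regulated subunit of ribonucleotide reductase, which makes deoxynucleotides, had the largest negative interaction among protein-coding genes with a group mean of at least 5 CPM (chromosome 2, 10120698 to 10131419). It measured 82.9, 84.6, 84.3 and 83.6 CPM in control vehicle libraries and 9.44, 9.99, 9.86 and 9.30 CPM in control cells under abemaciclib. Knockout libraries had 68.6, 71.8, 67.7 and 69.1 CPM under vehicle and 2.84, 3.63, 2.25 and 2.77 CPM under abemaciclib. The ranges of the 4 groups did not overlap, and the knockout gap under the drug was far larger in ratio than that under vehicle. If the separate effects had multiplied, knockout cells under abemaciclib would have had 7.97 CPM, and the observed mean was 2.87 CPM. The interaction was -1.20 (SE 0.101, limma adjusted p = 2.31e-10). On the plain CPM scale the order turned: RRM2 fell by 74.2 CPM in control cells and by 66.4 CPM in knockout cells, from a lower start. The same held for 45 of the 134 genes that were called lower and fell in both genotypes, so "fell further" refers to ratios. RRM2 was also among the genes whose values were whole reads in few libraries (7 of 16), that is, with fractional counts.

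CLSPN, which carries the replication checkpoint signal to CHK1, had means of 20.2 and 6.06 CPM in control cells without and with the drug and 22.9 and 2.78 CPM in knockout cells, for an interaction of -1.11 (limma adjusted p = 6.23e-06). TK1, thymidine kinase of the salvage route, had 156, 32.3, 117 and 12.5 CPM in the same order and an interaction of -0.89. Among licensing factors, which load or fire origins, MCM10 measured 7.45 to 8.41 CPM in control cells under abemaciclib and 2.57 to 3.91 CPM in knockout cells under abemaciclib, without overlap, while the vehicle ranges of 29.98 to 34.4 and 28.03 to 32.8 CPM overlapped. Its interaction was -1.07, that of CDC6 -0.77 and that of CDT1 -0.67. EXO1, a nuclease of resection and mismatch repair, had an interaction of -1.10. RAD54L, a motor protein of homologous recombination, had -0.58 and lost its call when the filter on low values was dropped. Going the other way at the fork, RPA3, the small subunit of the single-strand binding protein RPA, had an interaction of 0.40 and had fractional counts.

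In the list of E2F, MYB and DREAM regulators 6 of 22 members were called lower and 1 higher (all genes: 6.16% and 4.68%). E2F1, the founding activator E2F, had 58.3, 54.1, 61.3 and 58.5 CPM in control vehicle libraries and 59.5, 60.7, 61.1 and 61.4 CPM in knockout vehicle libraries, ranges that overlapped. Under abemaciclib it had 24.8, 29.6, 25.4 and 29.2 CPM in control cells and 12.9, 17.4, 14.7 and 14.3 CPM in knockout cells, without overlap. The interaction was -0.90 (SE 0.0937, limma adjusted p = 2.50e-08), and here the fall was also larger in CPM, 30.8 in control against 45.9 in knockout cells. MYBL2, the subunit that turns the DREAM scaffold into an activator of mitotic genes, went from 228 to 30.97 CPM in control and from 198 to 11.8 CPM in knockout cells (interaction -1.12, SE 0.0648, limma adjusted p = 2.65e-14). E2F7, an E2F that represses, had an interaction of -0.70. FOXM1, the activator of late mitotic genes, was chosen after its values were seen and had -0.69 (limma adjusted p = 5.15e-05).

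The list of G1 and S cyclins, kinases and their inhibitors had 6 of 22 called lower and 1 higher (all genes: 6.16% and 4.68%). CCNE2, a cyclin E that activates CDK2, measured 4.84 to 6.22 CPM in control and 1.65 to 2.46 CPM in knockout cells under the drug, with an interaction of -1.07 (limma adjusted p = 3.53e-07). CDKN2C, an inhibitor of CDK4 and CDK6 that E2F itself raises, had -0.80, and PKMYT1, which holds CDK1 inactive, had -0.79. CDKN2A went the other way with 0.35: it fell in both genotypes, but less in knockout cells. CDK4 and CDK6, the kinases that the drug inhibits, did not pass the test, nor did RB1, CDK2 and CDKN1A. The interaction was 0.05 for CDK4 (SE 0.0530), -0.17 for CDK6 (SE 0.145), -0.13 for RB1 (SE 0.0869), -0.08 for CDK2 (SE 0.0741) and -0.20 for the CDK inhibitor CDKN1A (SE 0.0824), with limma adjusted p between 0.127 and 0.649. All but CDK4 among them changed sign under spike-in rescaling (0.13 for CDK6, 0.17 for RB1, 0.22 for CDK2 and 0.10 for CDKN1A), and CDK4 had fractional counts. CCND1, which encodes cyclin D1, rose in both genotypes and rose less in knockout cells, from 226 to 489.6 CPM in control and from 179 to 323 CPM in knockout cells. Its interaction of -0.26 (limma adjusted p = 0.00248) lost its call without the trend, and its direction turned under spike-in rescaling (0.048).

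Among mitotic genes, MKI67, the proliferation antigen that coats chromosomes, had 85.5, 89.6, 95.4 and 88.1 CPM in control vehicle libraries and 82.7, 86.4, 84.5 and 83.2 CPM in knockout vehicle libraries. Under abemaciclib it had 13.2, 12.5, 11.7 and 10.9 CPM in control cells and 5.21, 5.14, 5.01 and 5.18 CPM in knockout cells. The vehicle ranges overlapped and the ranges under the drug did not, with an interaction of -1.001 (SE 0.0811, limma adjusted p = 1.05e-10). CDK1, the kinase that starts mitosis, had -0.72, KIF20A, a kinesin of cytokinesis, had -0.79 and SPC25, a kinetochore subunit, had -0.74, the last from fractional counts. KIF20A stood at only 0.974 to 1.91 CPM and SPC25 at 0.545 to 1.55 CPM in knockout cells under abemaciclib, where counting error is large. Of the genes given above, E2F7 (0.974 to 1.45 CPM) and EXO1 (1.19 to 2.18 CPM) were about as low in that group. CKS2, a small CDK-binding protein, was the 1 mitotic gene called higher (0.37), which fell less in knockout cells and had fractional counts. In the list of DNA methylation and repeat silencing 5 of 30 were called lower and 1 higher (all genes: 6.16% and 4.68%). Its median was 0.01. UHRF1 and HELLS, which maintain methylation in S phase, had -0.62 (fractional counts) and -0.40. Leaving out 1 library at a time gave 20 to 26 mitotic genes called lower, 15 to 20 at the fork and 7 or 8 in licensing. Without the mean-variance trend 16 mitotic genes were called lower, and under spike-in rescaling none was.

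Replication-dependent histones, made in S phase, had no member called lower. Of 26 tested members of 55 listed, 3 were called higher (4.68% of all genes), with a median of 0.17. H1-2, a linker histone, fell from 57.2 to 36.5 CPM in control and from 60.8 to 50.8 CPM in knockout cells (interaction 0.38). The count of 3 dropped to 1 when any 1 of 5 libraries was left out (control vehicle 1, 2 and 3, knockout vehicle 2 and knockout abemaciclib 3), and only H1-2 is named for that reason.

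The promoters of these genes hold letters known from E2F and DREAM targets, shown for the members with the largest interaction that have a promoter entry and hold a match in the 250 bases before the RefSeq start (GRCh38.p14). Each stretch is 30 bases, 5′ to 3′ on the gene's strand, and capitals mark the E2F letters TTCCCGC or TTGGCGC in the first 4 and the letters TTTGAA or TTTAAA of the cell cycle homology region in the last 2, on either strand:
TYMS: cgcgggacggccGCGGGAAaaggcgcgcgg
CHAF1A: gcggactgcgggggtcgccgcggTTCCCGC
E2F1: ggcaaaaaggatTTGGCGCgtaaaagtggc
E2F7: gcgcggctcggaGCGCCAAgactccgaggg
KIF20A: cgcagcgcgtaaTTTAAAatattgtatctg
SPC25: ttaTTTGAAgccgataaatgacttgtcgtg
They lie at chr18:657602-657631 (plus strand), chr19:4402610-4402639 (plus), chr20:33686387-33686416 (minus), chr12:77065685-77065714 (minus), chr5:138179059-138179088 (plus) and chr2:168890651-168890680 (minus). In GENCODE v29 those of TYMS, E2F1, KIF20A and SPC25 overlap an exon of the gene itself, so some transcripts start further upstream, and the other 2 overlap no gene. TYMS, thymidylate synthase, had an interaction of -0.86 and CHAF1A, a histone chaperone of the fork, -0.62.

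A RefSeq promoter of 300 bases, 250 before to 50 after the start, was matched for 10849 of the 16218 tested genes. TTCCCGC stood in 10.5% of them, and in 29.1% of the 110 matched genes that were called lower and fell in both genotypes. TTTGAA stood in 9.57% of all and in 31.8% of the same 110 genes. Over all 729 matched genes called lower the shares were 11.4% and 11.7%, and over the 543 of them that rose in control cells 7.55% and 7.92%. Among matched list members, 45.7% of 35 fork genes held TTCCCGC and 74.0% of 50 mitosis genes held TTTGAA. The CCAAT box, which often accompanies these letters, stood in 37.2% of all and in 57.3% of the 110 genes. The second E2F form TTGGCGC stood in 5.05% of all and in 13.6% of the 110 genes. For TTTAAA the shares were closer, 7.37% and 11.8%. The matches are a description of the letters and not of bound sites. No share was taken for genes that fell in both genotypes without being called lower. These shares therefore cannot link the letters to the further fall in knockout cells.

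**Figure D2:**
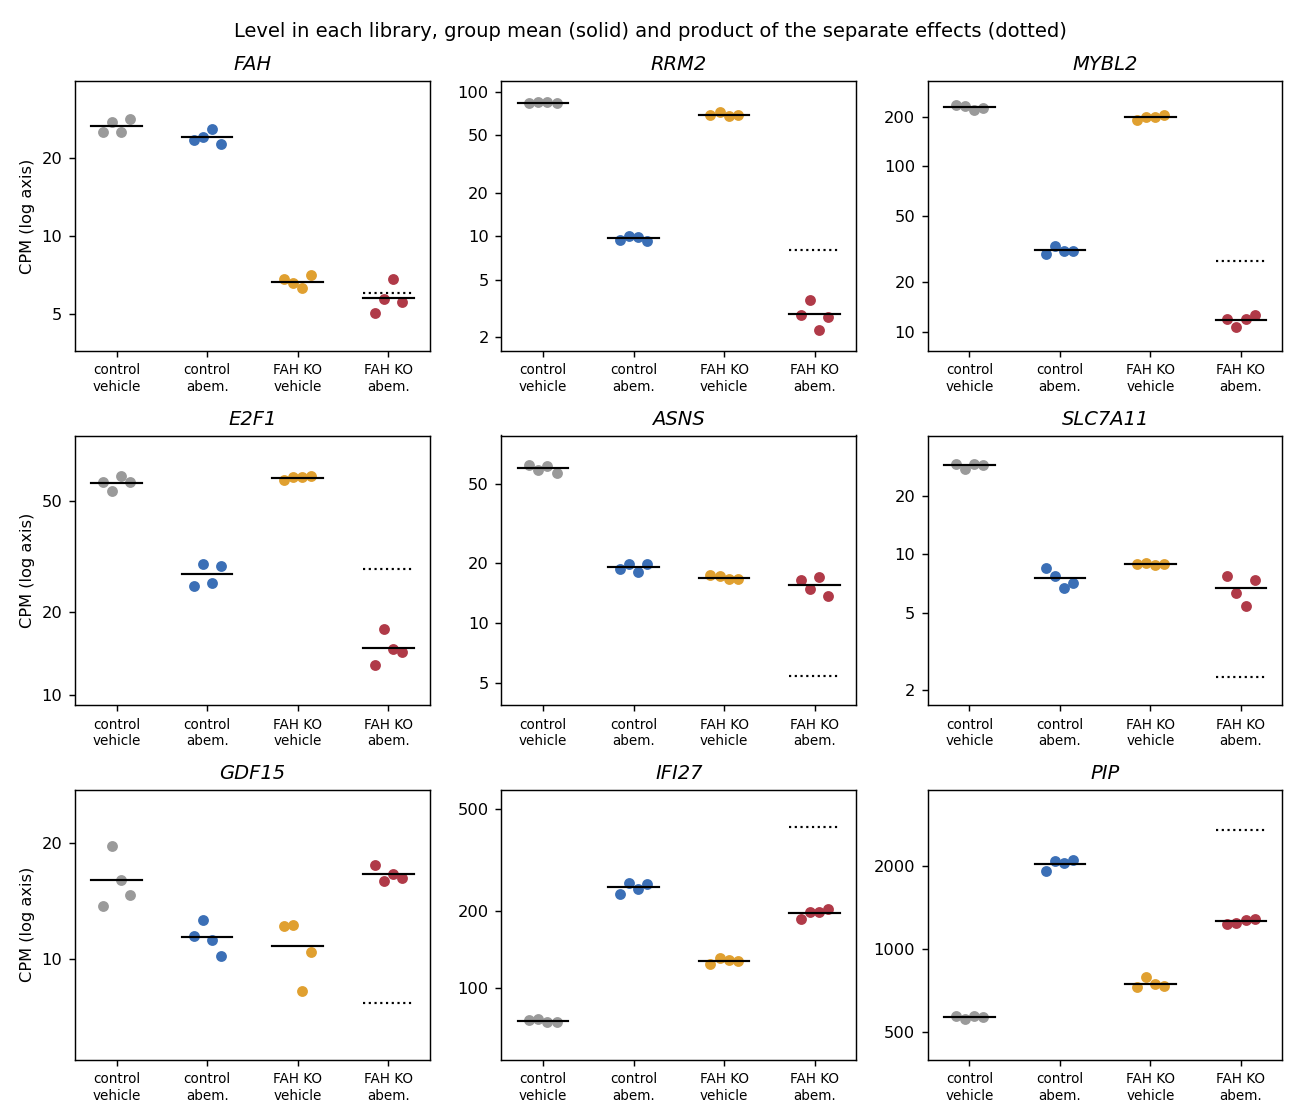
CPM (log axis) of 9 genes in each of the 16 libraries, with 1 point a library, a solid line at each group mean and a dotted line at the level expected in knockout cells under abemaciclib if the separate effects multiplied. RRM2, MYBL2, E2F1, IFI27 and PIP lie below the dotted line, ASNS, SLC7A11 and GDF15 above it, and FAH near it.

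Genes of the ATF4 response were lower in knockout cells before any drug, and abemaciclib lowered them in control cells and less in knockout cells. Under vehicle 32 of 43 were lower in knockout cells, and under abemaciclib 26 were, where 13.1% and 11.3% of all tested genes were. In the interaction, of 43 tested members of 44 listed, 26 were called higher and 1 lower, with a median interaction of 0.31, where 4.68% of all tested genes were called higher. In control cells abemaciclib lowered 28 of the 43, and in knockout cells 16. Leaving out 1 library at a time gave 25 to 27 called higher, and under spike-in rescaling 11 were called.

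ASNS, asparagine synthetase, had the largest positive interaction among protein-coding genes with a group mean of at least 5 CPM (chromosome 7, 97852118 to 97872542, minus strand). It measured 62.3, 58.4, 61.1 and 56.8 CPM in control vehicle libraries, and 18.7, 19.8, 18.02 and 19.8 CPM in control cells under abemaciclib. In knockout cells it measured 17.3, 17.2, 16.6 and 16.5 CPM under vehicle and 16.5, 14.8, 16.9 and 13.7 CPM under abemaciclib. Control vehicle libraries thus stood alone at the top, and the knockout ranges under vehicle and drug overlapped. Multiplied effects would give 5.41 CPM, against an observed mean of 15.5. The interaction was 1.47 (SE 0.0890, limma adjusted p = 6.48e-14). The drug effect was -1.59 in control cells, and -0.12 with no call in knockout cells. ASNS overlaps the annotated gene ENSG00000284707 on the same strand, whose values were nearly the same (58.9, 18.9, 16.9 and 15.4 CPM), and reads of the pair may have been split between them. ENSG00000248498, annotated as a transcribed pseudogene and chosen after its values were seen, had means of 13.2, 4.34, 4.23 and 4.55 CPM and an interaction of 1.499 (limma adjusted p = 5.54e-10). Its control vehicle mean also stood alone at the top, and whether it shares reads with ASNS was not tested. These genes may therefore not be separate signals.

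SLC7A11, the cystine importer, had the next largest value among protein-coding genes of that level. Its libraries held 29.2, 27.7, 29.4 and 29.1 CPM in control vehicle and 8.50, 7.71, 6.71 and 7.13 CPM in control abemaciclib. Knockout libraries held 8.94, 9.08, 8.78 and 8.96 CPM under vehicle and 7.77, 6.29, 5.44 and 7.35 CPM under the drug. The control vehicle libraries again lay far above the other 3 groups, and the control and knockout ranges under the drug overlapped (interaction 1.44, SE 0.124, limma adjusted p = 3.02e-10). PSAT1, of serine synthesis, went from 69.6 to 25.3 CPM in control and from 26.5 to 19.2 CPM in knockout cells (interaction 0.98). The amino acid exchanger SLC7A5 had 0.73, PCK2, the mitochondrial PEP carboxykinase, 0.71 and TRIB3, a pseudokinase that ATF4 induces, 0.70. All 4 of these fell with abemaciclib in both genotypes. ATF4 mRNA itself, chosen after its values were seen, had 0.36 from fractional counts. ALDH18A1, of proline synthesis, was the 1 member called lower (-0.26, and 0.042 under spike-in rescaling).

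The aminoacyl-tRNA synthetases of the cytosol, which charge tRNAs and are in part ATF4 targets, fell with abemaciclib in 16 of 20 cases in control and in 7 in knockout cells, where 31.1% and 27.4% of all tested genes fell. In the interaction 12 were called higher, where 4.68% of all tested genes were, and none lower, with a median of 0.23. The count was 9 to 12 with single libraries left out, and 1 under spike-in rescaling. GARS1, for glycine, measured 298, 303, 312 and 307 CPM in control vehicle libraries and 196, 193, 195 and 199 CPM under abemaciclib. In knockout cells it measured 180.0, 193, 188 and 191 CPM under vehicle and 176, 169, 175 and 178 CPM under abemaciclib. Control libraries under the drug thus lay near knockout libraries without it (interaction 0.53, limma adjusted p = 2.31e-10, fractional counts). YARS1, for tyrosine, had 0.44 and MARS1, for methionine, 0.42.

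The letters TGATG, any base, AA and any base, read by ATF4 with a C/EBP partner, were searched on both strands and stood in 1.56% of the matched promoters, in 3.40% of those called higher and in 21.2% of 33 matched members of the ATF4 list. A pair of stretches of 30 bases with the match in capitals shows it, in the called members with the largest interaction that hold it before the RefSeq start, among those with a promoter entry (SLC7A11 has none and was not searched):
ASNS: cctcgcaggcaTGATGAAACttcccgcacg
MTHFD1L: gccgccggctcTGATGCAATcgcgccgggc
They lie at chr7:97872458-97872487 (minus strand) and chr6:150866346-150866375 (plus strand), each over an exon of its own gene in GENCODE v29. In ASNS the letters TTCCCGC follow the match in lower case. MTHFD1L, of mitochondrial one-carbon metabolism, had an interaction of 0.60.

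**Figure D3:**
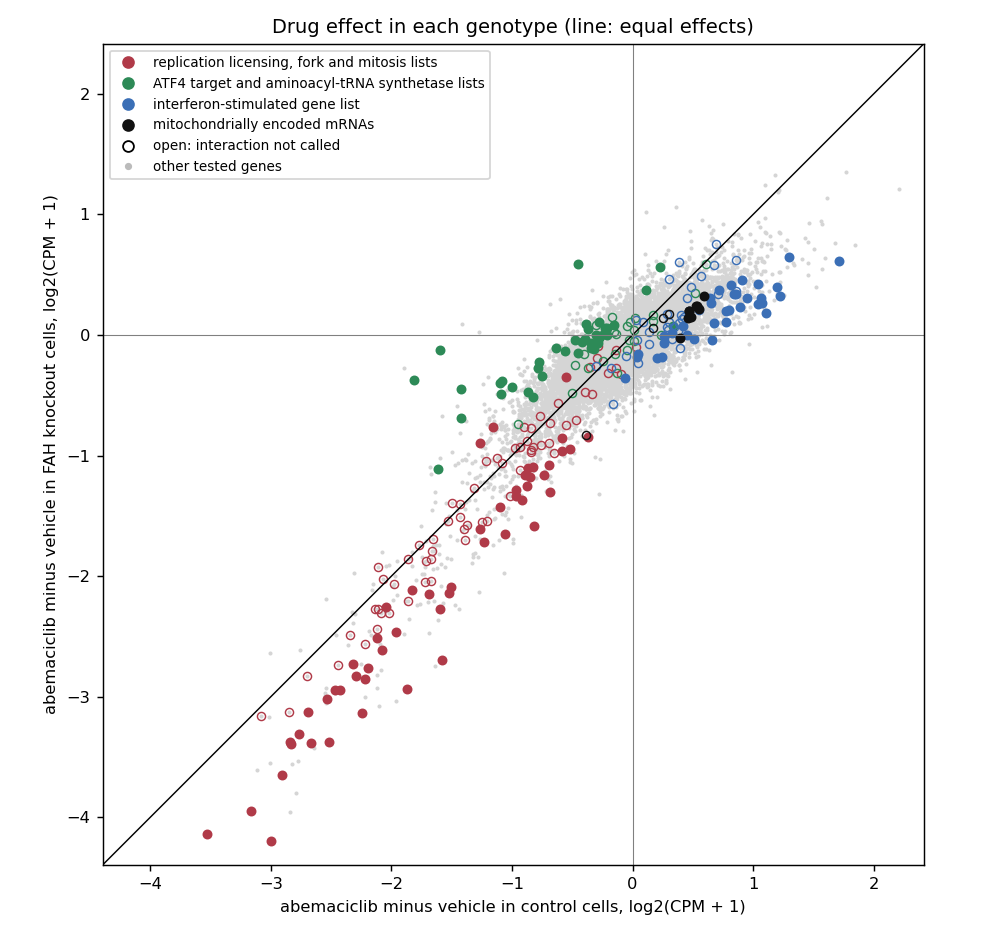
Abemaciclib minus vehicle on the log2(CPM + 1) scale in control cells (horizontal) and in FAH knockout cells (vertical) for each tested gene, with the line of equal effects. Filled points are called list members: replication and mitosis genes lie mostly below the line at the lower left, ATF4 and tRNA synthetase genes above it on the left, and interferon-stimulated genes and mitochondrially encoded mRNAs below it on the right.

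Ribosomal protein and respiratory chain mRNAs fell with abemaciclib in control cells and fewer of them in knockout cells. Of 78 cytosolic ribosomal proteins 53 fell in control and 10 in knockout cells, while 69 were lower in knockout cells under vehicle. Over all tested genes 31.1% and 27.4% fell, and 13.1% were lower under vehicle. In the interaction 49 of the 78 were called higher, where 4.68% of all genes were, and none lower, with a median interaction of 0.16. RPS21, a small subunit protein, had 3749, 3785, 3621 and 3705 CPM in control vehicle libraries and 2832, 2755, 2879 and 2925 CPM under abemaciclib, without overlap. Knockout libraries had 3041, 3047, 3060.3 and 2892 CPM under vehicle and 2977, 2932, 2938 and 2964 CPM under abemaciclib, with overlap (interaction 0.36, limma adjusted p = 1.66e-08). RPS29 had 0.33 and RPS15A 0.33. Of the 49 calls, 46 had fractional counts, and many pseudogenes copy these mRNAs. The count was 29 under quantile normalization, 28 without the trend and 0 under spike-in rescaling. Ribosome biogenesis factors had 9 of 54 called higher and none lower (6 to 11 with single libraries left out), among them BOP1, of large subunit assembly (0.39).

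Nuclear genes of the respiratory chain fell in 59 of 75 cases in control and in 36 in knockout cells, beside the same 31.1% and 27.4%. In the interaction they had 36 of 75 called higher (0 under spike-in rescaling, and 4.68% of all genes) and none lower, with a median of 0.14. NDUFB6, of complex I, fell from 208 to 133 CPM in control and from 171 to 148 CPM in knockout cells (interaction 0.43). COX7B, of cytochrome c oxidase, had 0.37 and NDUFB9 0.33, and all 3 had fractional counts. The 13 mitochondrially encoded mRNAs went the opposite way. With abemaciclib 12 rose in control and 9 in knockout cells, where 19.6% and 11% of all tested genes rose. In the interaction 9 were called lower (6.16% of all genes) and none higher, with a median of -0.28, and all 13 lay below 0. MT-ND2, of complex I, measured 3150.3 to 3388 CPM in control vehicle and 4215 to 4419 CPM in control abemaciclib libraries. In knockout cells the ranges were 3764 to 4114 CPM and 3669 to 4087 CPM, which overlapped (interaction -0.41). MT-ND1 had -0.34 and MT-ND5 -0.33. All 9 called mRNAs had fractional counts.

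Interferon-stimulated genes rose with abemaciclib in control cells and less in knockout cells, which held more of them without the drug. Of 68 tested members of 70 listed, 34 were called lower (6.16% of all genes) and none higher, with a median of -0.34. In control cells 54 rose with abemaciclib, and in knockout cells 28 did, where 19.6% and 11% of all tested genes rose. The knockout level was higher for 65 of them under vehicle and for 54 under abemaciclib, where 24.6% and 18.6% of all tested genes were higher. The count was 29 to 37 with single libraries left out and 1 under spike-in rescaling.

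IFI27, a mitochondrial protein among the strongest interferon targets, measured 75.3, 75.9, 73.7 and 74.1 CPM in control vehicle libraries and 233, 257, 244 and 255 CPM under abemaciclib. Knockout libraries had 125, 131, 129 and 127 CPM under vehicle and 186, 198, 198 and 203 CPM under abemaciclib. Its order reversed: knockout cells were above control cells under vehicle and below them under the drug, without overlap in either case (interaction -1.10, SE 0.0520, limma adjusted p = 1.25e-16). IFIT2, which binds viral RNA, had means of 2.54 and 6.60 CPM in control and 8.29 and 9.58 CPM in knockout cells, and the last rise was not called (interaction -0.92). OAS2, which makes the RNase L activator, had -0.90. ISG15, a ubiquitin-like modifier, was chosen after its values were seen: it went from 52.9 to 123 CPM in control and from 174 to 229 CPM in knockout cells (interaction -0.80). IFIT1, chosen likewise, had an interaction of -0.65, yet its rise in CPM was larger in knockout cells (47 against 39.2). For IFIT1 the smaller ratio thus stood on a higher base.

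The letters GAAA, any 2 bases and again GAAA, of the interferon response element, were searched on both strands and stood in 2.65% of matched promoters, in 56.9% of 51 matched members of the list and in 5.16% of the 543 matched genes that were called lower and rose in control cells. Stretches of 30 bases from the called members with the largest interaction that hold it, among those with a promoter entry, show the match in capitals (IFIT2 and OAS2 have no entry and were not searched):
IFI27: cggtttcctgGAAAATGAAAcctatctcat
IFI44: gggcacactgagTTTCAGTTTCctttctct
They lie on the plus strand at chr14:94110631-94110660, inside IFI27 but outside its exons in GENCODE v29, and at chr1:78649759-78649788, outside any gene there. IFI44, an interferon-induced cytoplasmic protein, had an interaction of -0.81.

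Neighbouring immune lists gave fewer calls. MHC class I and peptide loading genes had 4 of 21 called lower and 2 higher (all genes: 6.16% and 4.68%). The lower count was 2 without library 4 of the knockout vehicle group. HLA-E, a ligand of natural killer cell receptors, had -0.21 from fractional counts, and 0.094 under spike-in rescaling. Among NF-kappaB subunits, inhibitors and targets 2 of 29 were called lower and 1 higher, while 24 were higher in knockout cells under vehicle and 19 under abemaciclib. The NF-kappaB interaction counts are near the background of 6.16% and 4.68%, and 24.6% and 18.6% of all tested genes were higher in knockout cells. BCL3, a nuclear inhibitor of the family, had -0.48 and CSF1, a macrophage growth factor, -0.63. The NF-kappaB inhibitor NFKBIA, chosen after its values were seen, had 93.3 and 92.2 CPM in control and 249 and 250.4 CPM in knockout cells (interaction 0.02, SE 0.0486, limma adjusted p = 0.824). The subunit RELB, chosen likewise, was high in knockout cells under both treatments, with no called interaction (-0.29, SE 0.166, limma adjusted p = 0.311, and 0.027 under spike-in rescaling).

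**Figure D4:**
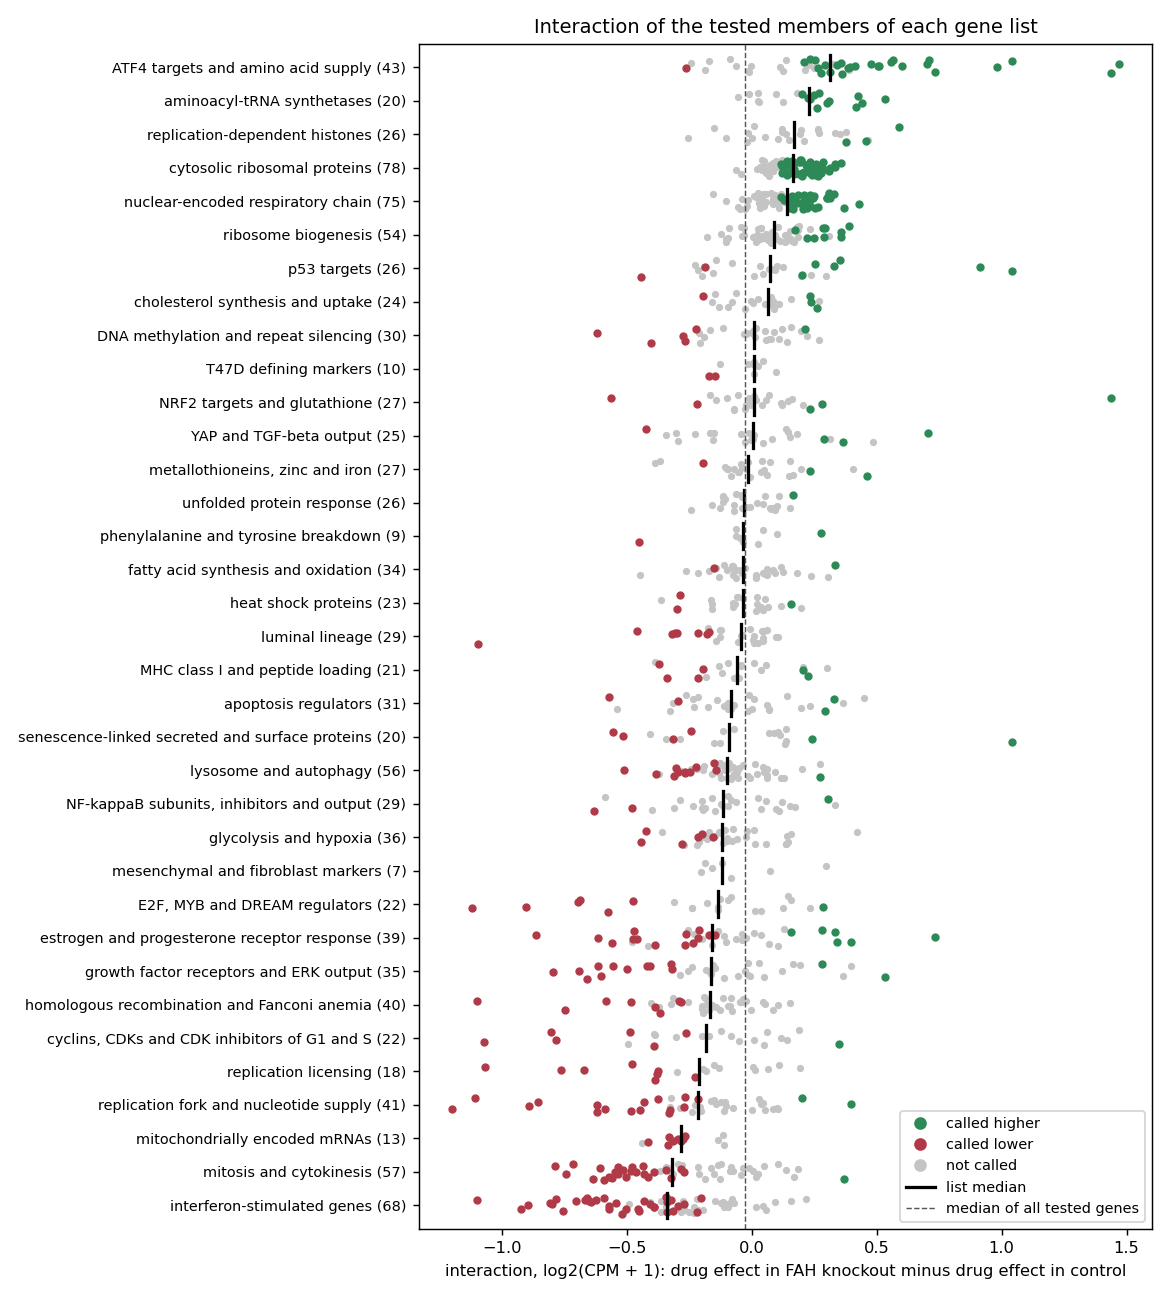
Interaction on the log2(CPM + 1) scale (horizontal) of the tested members of each gene list (rows, number tested in brackets), with called members in colour, the list median as a black bar and the median of all tested genes dashed at -0.03. Of the lists drawn, the ATF4 list has the highest median (0.31) and the interferon-stimulated list the lowest (-0.34).

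GDF15, a secreted stress cytokine that both p53 and ATF4 can raise, changed in opposite directions. It fell in control cells, from 13.7, 19.6, 16.03 and 14.7 CPM under vehicle to 11.5, 12.6, 11.2 and 10.2 CPM under abemaciclib. In knockout cells it rose, from 12.2, 12.3, 8.24 and 10.4 CPM to 17.6, 15.9, 16.6 and 16.3 CPM. Neither pair of ranges overlapped (interaction 1.04, SE 0.140, limma adjusted p = 2.48e-06). TP53I3, a quinone oxidoreductase of the p53 programme, had 604, 599.6, 583 and 601 CPM in control vehicle and 198, 198, 204 and 195 CPM in control abemaciclib libraries. It had 619.7, 660.3, 643 and 646 CPM in knockout vehicle and 382, 394, 408 and 429 CPM in knockout abemaciclib libraries. The drug fall was thus smaller in knockout cells (interaction 0.91), in a gene with fractional counts. The p53 list as a whole had 6 of 26 called higher and 2 lower (all genes: 4.68% and 6.16%). It had 3 higher without library 2 of the control vehicle group. TP53INP1, which promotes p53 activity and autophagy, was called lower (-0.44). T47D cells carry mutant p53, and p53 activity was not measured.

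The luminal list had 8 of 29 called lower and none higher (all genes: 6.16% and 4.68%). Its median of -0.04 was near the -0.03 of all tested genes. PIP, a secreted protein of breast and apocrine glands (chromosome 7, 143132077 to 143139746), measured 575, 557, 572 and 571 CPM in control vehicle libraries and 1931, 2085, 2057 and 2105 CPM under abemaciclib. Knockout libraries had 730.3, 793, 747 and 737 CPM under vehicle and 1231, 1251, 1283 and 1288 CPM under abemaciclib. As with IFI27, knockout cells were above control cells under vehicle and below them under the drug (interaction -1.10, SE 0.0422, limma adjusted p = 4.54e-19). ELF5, a transcription factor of milk-secreting cells, had -0.46 and MLPH, of vesicle transport, -0.32. Among secreted and surface proteins linked to senescence 4 of 20 were called lower and 2 higher, beside the same 6.16% and 4.68%. IGFBP5 of that list, which binds insulin-like growth factors, rose from 1176 to 2272 CPM in control and from 1267 to 1708 CPM in knockout cells (interaction -0.52, fractional counts), and TIMP1, a protease inhibitor, had -0.55.

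Hormone receptor targets were mixed. Of 39 genes of the estrogen and progesterone response 14 were called lower and 6 higher (all genes: 6.16% and 4.68%). ESR1 itself had an interaction of 0.01 (SE 0.0600, limma adjusted p = 0.948). IRS1, the docking protein of insulin and IGF receptors, had 17.04, 14.6, 15.9 and 17.2 CPM in control vehicle and 37.2, 34.7, 36.6 and 33.5 CPM in control abemaciclib libraries. It had 35.8, 36.2, 38.96 and 38.9 CPM in knockout vehicle and 43.4, 45.9, 45.5 and 40.8 CPM in knockout abemaciclib libraries. The ranges of untreated knockout and treated control libraries thus overlapped (interaction -0.87, limma adjusted p = 3.52e-09). PDZK1, a scaffold protein, had -0.56. Of the T47D markers 2 were called lower, the keratin KRT19 (-0.17) and the progesterone receptor PGR (-0.15), both with fractional counts, no call without the trend and the opposite sign under spike-in rescaling (0.14 and 0.16).

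In the list of growth factor receptors and ERK output 11 of 35 were called lower and 2 higher (all genes: 6.16% and 4.68%). FOS, a subunit of AP-1, had 9.08, 8.93, 9.17 and 6.60 CPM in control vehicle and 18.3, 17.7, 15.6 and 15.9 CPM in control abemaciclib libraries. Knockout libraries overlapped the latter under both treatments, with 14.9, 16.5, 16.03 and 11.6 CPM and 17.7, 18.2, 16.2 and 17.6 CPM (interaction -0.69, limma adjusted p = 4.50e-04). FOSB had -0.79, from means of at most 2.71 CPM, and the phosphatase DUSP10 had -0.66. SPRY1, an inhibitor of receptor signalling, went the other way with 0.53, rising in knockout cells with no call in control cells. FOSB and SPRY1 lost their call when the filter on low values was dropped.

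Among outputs of YAP and TGF-beta 3 of 25 were called higher and 1 lower (all genes: 4.68% and 6.16%). The higher count was 5 without library 3 of the knockout abemaciclib group. The lower count was 3 without library 4 of the control abemaciclib group and 2 without control vehicle 3, control abemaciclib 2 or 3, or knockout vehicle 1. CCN2, a matrix protein and YAP target, had 4.13, 3.07, 3.73 and 3.39 CPM in control vehicle libraries, 4.86, 5.17, 4.59 and 4.82 CPM in control abemaciclib libraries and 4.60, 4.99, 4.03 and 3.05 CPM in knockout vehicle libraries. Under the combination it had 8.51, 10.4, 9.34 and 10.6 CPM, above every library of the other groups (interaction 0.70, limma adjusted p = 0.00249). AMOTL2 and AJUBA, which bind YAP pathway proteins, had 0.36 (fractional counts) and 0.29 (no call without the filter on low values), and both rose in knockout cells with no call in control cells. LTBP1, which stores TGF-beta in the matrix, had -0.42.

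Other genes with large interactions are described singly. CAMK2B, a calcium-dependent kinase, rose from 4.67 to 9.07 CPM in control and fell from 8.24 to 6.46 CPM in knockout cells (interaction -1.14, limma adjusted p = 1.10e-06). MDGA1, a membrane-anchored adhesion protein, had -1.13, and KCNC1, a potassium channel, -1.02. CITED1, a coactivator, had -1.04, with fractional counts and an annotated gene, ENSG00000285547, overlapping it on the X chromosome with like values. XAGE2, a cancer-testis antigen, fell in control and rose in knockout cells (0.95). OLR1, a receptor for oxidized lipoprotein, had 0.70 and TMEM52B, a membrane protein, 0.66. Their annotated genes overlap on opposite strands of chromosome 12, and whether reads were shared between them was not tested. The nuclear noncoding RNA NEAT1, chosen after its values were seen, went from 1105 to 3357 CPM in control and from 2214 to 3444 CPM in knockout cells (interaction -0.96). MALAT1, its neighbour, chosen likewise, had -0.77, and both had fractional counts.

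The list around phenylalanine and tyrosine breakdown, the pathway of FAH, is wider than the pathway and had 9 tested members of 14 listed. Of these 1 was called higher and 1 lower (all genes: 4.68% and 6.16%). GOT1, a transaminase, fell from 86.1 to 52.9 CPM in control and from 73.4 to 54.7 CPM in knockout cells (interaction 0.28, limma adjusted p = 0.00222). The member called lower, AACS, activates acetoacetate and is not a step of the breakdown itself. It rose from 24.4 to 38.8 CPM in control and from 29.8 to 34.2 CPM in knockout cells (interaction -0.45, limma adjusted p = 1.28e-04). GSTZ1, the isomerase 1 step before FAH, had 0.02 (SE 0.0711, limma adjusted p = 0.889).

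Lists of stress and metabolism had 1 to 5 called members each, with shares on both sides of the 10.8% background. The unfolded protein response had 1 of 26 called higher and none lower, and PDIA4, a disulfide isomerase, was that gene (0.16, no call under quantile normalization or without the trend). Heat shock proteins had 1 called higher and 2 lower of 23, with HSPB1 at -0.30 (fractional counts, and 0.012 under spike-in rescaling). Cholesterol synthesis had 3 higher and 1 lower of 24, with FDFT1, which makes squalene, at 0.24 and FDPS, which makes farnesyl diphosphate, at 0.23. Fatty acid genes had 1 higher and 1 lower of 34, with HADH, of beta-oxidation, at 0.33. NRF2 targets had 3 higher and 2 lower of 27: beside SLC7A11, TXN (thioredoxin) had 0.28, FTH1 (ferritin) 0.23 and the exporter ABCC3 -0.56, of which FTH1 and ABCC3 had fractional counts.

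Lysosome and autophagy genes rose with abemaciclib in 37 of 56 cases in control and in 28 in knockout cells, where 19.6% and 11% of all tested genes rose. In the interaction they had 11 of 56 called lower (0 under spike-in rescaling, and 6.16% of all genes) and 1 higher, with a median of -0.10. RRAGD, which tethers mTORC1 to lysosomes, had -0.51 (no call without the filter on low values), WIPI1, of autophagosome formation, -0.38, and the proton pump subunit ATP6V0D1 -0.31. Glycolysis and hypoxia genes had 6 of 36 called lower and none higher with all libraries (4 to 7 lower with single libraries left out). The higher count was 2 without library 4 of the control abemaciclib group, and 1 without knockout vehicle 2 or knockout abemaciclib 3. SLC16A3, a lactate exporter, had -0.43 and fell in knockout cells with no call in control cells. P4HA2, of collagen hydroxylation, had -0.44, and PFKFB3, which activates glycolysis, -0.28, reversed to 0.032 under spike-in rescaling. Metallothionein, zinc and iron genes had 2 higher and 1 lower of 27, with the metallothionein MT1X at 0.46 from fractional counts. Among apoptosis regulators 2 were called higher and 2 lower of 31, the latter being the death ligand TNFSF10 (-0.57) and BCL2L1, an inhibitor of apoptosis (-0.30, and 0.013 under spike-in rescaling). That lower count was 4 without control abemaciclib library 3 or knockout vehicle library 1. With all libraries the metallothionein and apoptosis counts are near the 4.68% higher and 6.16% lower of all tested genes.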

How the data were processed

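RNA-seq of 16 T47D libraries was analysed. The authors aligned reads with STAR 2.7.11 and counted them with featureCounts of Subread 2.1.1, and SAMtools 1.22.1 and MultiQC 1.32 are also listed, per the submitters' processing notes. The deposited table gives CPM, which sums to 1000000 in every library. For multi-mapping rules, strand setting and annotation release, the entry is: not given in the sources used here. One read is worth a fixed CPM step, which gave the depths, 9915776 to 11963093 assigned reads. Values were whole reads within 0.02 in all libraries for 32.5% of tested genes, so no count test was run.

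Genes at 1 CPM or more in at least 4 libraries were kept (16218 of 78986 rows). The 92 spike-in rows were set aside. Symbols were those of the deposited table, with 51 altered ones restored through their gene IDs. Positions and exon overlaps were taken from GENCODE v29. One limma 3.58.1 fit (R 4.3.3) of 4 group means on log2(CPM + 1), with eBayes, a mean-variance trend and two-sided tests, gave the interaction and the separate effects. The fit was tested on simulated data. Members, gene lists (37) and tests were chosen with earlier results of these data known. Named genes were, each way, the 12 largest called interactions of protein-coding genes with a group mean of at least 5 CPM, up to 3 called members in a list's main direction and 1 in the other for lists with at least 5 tested, and 13 fixed genes. Some named genes are not reported here. Others are said to be chosen after their values were seen. Alternatives were other pseudocounts, filters, scalings and variance models, a replicate block, each library left out and, added after seeing the data, genes of whole reads alone. RefSeq promoters (GRCh38.p14) were searched for motif letters on both strands.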

Additional observations from a re-analysis of the deposited data

Results flagged for a closer look

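With 4 libraries a group, a library was singled out when its gap to the nearest other library of the group, divided by the group's range, passed Dixon's critical value. This held in 24 of 476 groups (5.04%) over 119 reported genes, near the 1 in 20 that chance gives. In control vehicle cells these were BOP1 in library 2 (35.01 CPM), FOS in 4 (6.599), FOSB in 1 (1.21), PFKFB3 in 3 (148.4), RAD54L in 1 (9.278) and RB1 in 2 (37.69). In control cells under abemaciclib they were BCL2L1 in library 1 (97.53 CPM), SPC25 in 1 (2.476), SLC7A5 in 2 (89.88), and CCNE2 (4.844), CDKN2C (7.138) and NDUFB9 (374.8) in library 3. In knockout vehicle cells they were MT-ND1 (3219 CPM), ENSG00000284707 (17.42) and TXN (652.7) in library 1, SPRY1 (5.785) and TK1 (113.7) in 2, FOXM1 (37.39) in 3, and FDFT1 (212.9), MARS1 (73.56), RPS21 (2892) and YARS1 (35.44) in 4. In knockout cells under abemaciclib they were ABCC3 (15.37 CPM) and CDK2 (36.78) in library 3.

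The effect of abemaciclib differed between the genotypes for 759 genes with a higher and 999 with a lower interaction in limma. Of the genes described, CAMK2B (interaction -1.14) rose in control and fell in knockout cells, and XAGE2 (0.95) and GDF15 (1.04) fell in control and rose in knockout cells.

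Spike-in rows, used only for the rescaling alternative, held reads in every library. The lowest number was 36 in library 3 of knockout cells under abemaciclib, and the highest was 65 in library 3 of control cells under abemaciclib.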

How the results depend on the processing

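Against 759 genes called higher, 999 lower and 24 of at least 2-fold, leaving out 1 library gave 627 to 792 higher, 816 to 1096 lower and 20 to 24 of at least 2-fold. Without the filter on low values 494 were higher and 578 lower, and without the trend 491 were higher. A pseudocount of 0.1 gave 77 of at least 2-fold and voom weights 84, while both kept the counts of calls within 1.5 times. The 5270 genes of whole reads alone, a smaller set chosen after seeing the data, gave 124 higher, 269 lower and 9 of at least 2-fold. Spike-in rescaling, from 36 to 65 reads a library, gave 48, 10 and 15. With it, 18 of the genes followed singly changed sign, with HSPB1 at 0.012, BCL2L1 0.013, HSPH1 0.020, PFKFB3 0.032, MPHOSPH8 0.027, RELB 0.027, ALDH18A1 0.042, CCND1 0.048, HLA-E 0.094, CDKN1A 0.10, SLC40A1 0.12, CDK6 0.13, KRT19 0.14, FASN 0.16, PGR 0.16, RB1 0.17, CDK2 0.22 and FAH 0.22. This rescaling divides each library by 1 factor, which shifts the interaction by nearly the same amount in all genes well above 1 CPM. The median of all tested genes was 0.25 with it and -0.03 without. The cause of the lower mean number of spike-in reads in knockout cells under abemaciclib was not tested. List medians minus the median of all genes were -0.30 for mitosis, -0.28 for interferon-stimulated genes, 0.36 for the ATF4 list and 0.22 for ribosomal proteins there. A shift common to all genes cancels in these differences, so their kept sign does not test the rescaling. Same-numbered libraries of different groups did not deviate together (24 correlations from -0.04 to 0.06, and 5 of 16 libraries correlated best with their own number). The replicate block gave 742 higher, 1003 lower and 24 of at least 2-fold. Depth limits genes near 1 CPM most.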
